A study of Mus musculus with 6 samples.

Results

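The colony-stimulating factor receptor genes were followed in bone marrow-derived macrophages (BMDMs) of WT and PYK2 KO mice, to see whether the transcripts through which these cells sense their growth factors differ when the kinase PYK2 is missing. The members were taken by gene symbol, and all 6 (Csf1r, Csf2ra, Csf2rb, Csf2rb2, Csf3r and Il3ra) were found among the 55291 genes of the count table. All 6 also passed the filter on low counts that left 9815 genes for testing. BMDMs are primary macrophages grown from flushed bone marrow, here for 7 days in medium with 20% L929-conditioned medium as the source of M-CSF, so both genotypes were cultured with the ligand of CSF1R. The WT group comprised libraries 1, 5 and 6 and the PYK2 KO group libraries 2, 3 and 4, each from 1 mouse, with the strain given as C57BL/6 for both genotypes and no age or sex given in the labels. The PYK2 KO mice are PYK2-/- animals, with a knockout that was not limited to macrophages.

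Colony-stimulating factors drive the formation, survival and activation of myeloid cells. M-CSF signals through CSF1R, a receptor tyrosine kinase that marks the monocyte and macrophage lineage and on which macrophages in culture depend. GM-CSF, IL-3 and IL-5 each bind a private α chain that pairs with a shared β chain, encoded by Csf2rb, and signal through JAK2 and STAT5. Mice carry an additional β chain gene, Csf2rb2, whose product pairs with the IL-3 receptor α chain but not with that of GM-CSF. G-CSF acts through a receptor of its own, CSF3R, best known from neutrophils.

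The libraries held between 2857097 and 3917207 counts, and 25 genes passed the quasi-likelihood test of edgeR (Benjamini-Hochberg adjusted p-value below 0.05). Levels are given in CPM, the counts scaled by TMM-corrected library size, with the SD over 3 mice of a genotype. Ptk2b, which encodes PYK2, was at 195 ± 5.63 in WT against 21.8 ± 1.14 CPM in PYK2 KO cultures, or 11.2% of WT, so that Ptk2b transcript was reduced but still counted. Of the 9 macrophage markers, among them Lyz2, Cd68 and Adgre1, 0 passed the test, against 0.255% of all tested genes. Their summed level, Csf1r included, ran from 29277 to 29994 CPM in WT and from 30447 to 31439 CPM in PYK2 KO libraries. Most of that sum was Lyz2, at a mean of 24068 CPM in WT against 25389 in PYK2 KO BMDMs, while 4 of the 9 (Cd68, Adgre1, Cd14 and Csf1r) had lower means in PYK2 KO BMDMs. Of 7 dendritic cell markers, 4 (Flt3, Zbtb46, Siglech and Xcr1) were at 0 counts in every library, Ccr7 and Cd209a had at most 2 counts, and Batf3 had 7 to 22. Of 9 markers of B, T and NK cells, 6 were at 0 in every library, among them Cd79a and Ms4a1, Trac and Nkg7 had at most 2 counts, and Cd79b had 43 to 80. Of 6 stromal markers, 3 were at 0 in every library and Col1a2 had the highest count, 5. The part of these cells in the results was not tested. Since these are bulk samples, fewer cells of a type and less RNA per cell cannot be told apart.

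Csf2rb2 was the only member that passed the test, in a call that 7 of 14 alternative fits kept. It fell from a mean of 154 ± 24.8 CPM in WT BMDMs to 105 ± 6.81 CPM without PYK2 (SD, n = 3), or to 68.5% of the WT level. The other 5 receptor transcripts had lower means in PYK2 KO BMDMs too, between 85.2% and 96.9% of WT, and none of them passed the test. Thus 1 of the 6 members was called, against 0.255% of all tested genes in either direction and 0.143% downwards. The genotypes did not overlap for 1 of the 6, against 10.2% of all tested genes in either direction and 5.07% downwards. At an unadjusted p-value under 0.05 the count was 2 of 6, Csf2rb2 and Csf2rb, against 6.03% of all tested genes in either direction and 2.63% downwards. The members' log2 fold changes had a median of -0.14, while that of all tested genes was 0.0019. The members were picked with the call of Csf2rb2 already known, so that these counts describe the family and do not add evidence to the call.

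**Figure D1:**
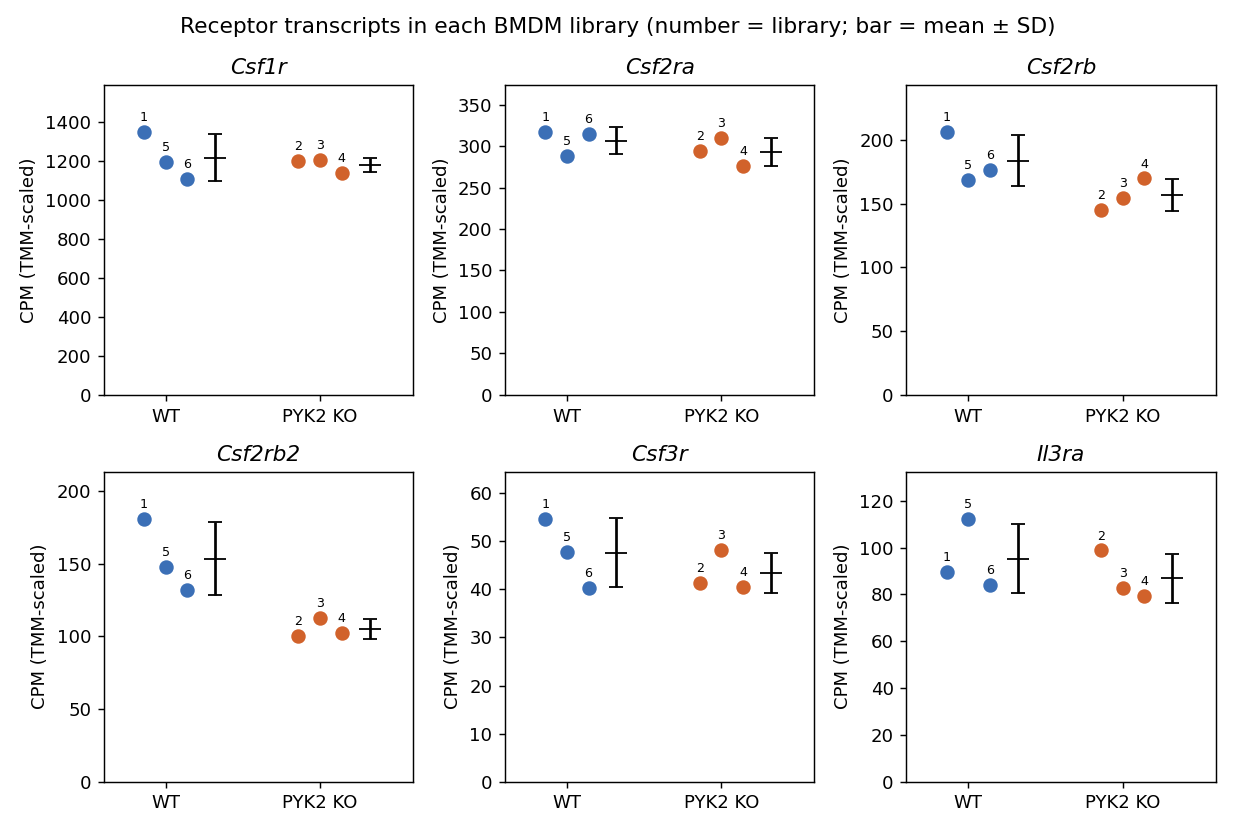
Level of each receptor transcript in CPM (vertical axis, from 0) in the 3 WT (blue) and 3 PYK2 KO (orange) libraries, numbered as labelled, with the mean and SD of each genotype as a black bar. The PYK2 KO points of Csf2rb2 lie between 100.1 and 113 CPM, all below the lowest WT point at 132 CPM, while the genotypes of the other 5 genes overlap.

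Csf1r, which encodes the M-CSF receptor, was by far the most abundant of the 6. Its level was 1348 CPM in WT 1, 1196 in WT 5 and 1110.0 in WT 6, against 1199 CPM in PYK2 KO 2, 1204 in PYK2 KO 3 and 1139 in PYK2 KO 4. The same order of libraries is kept in the values that follow. All PYK2 KO values thus lay inside the range of the WT values, whose spread was set by a high library 1 and a low library 6. The log2 fold change of PYK2 KO over WT, -0.045, had a 95% interval from -0.22 to 0.13 (adjusted p = 0.984 by edgeR's quasi-likelihood test). Csf1r ranked 89 among the 9815 tested genes by mean CPM. Without WT library 1 its log2 fold change turned to 0.033.

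Csf2ra, the α chain that gives the GM-CSF receptor its specificity, had 317, 288 and 315 CPM in WT against 295, 309.7 and 276 in PYK2 KO BMDMs. The genotypes overlapped. It was the steadiest member, its highest library being only 1.15 times its lowest. Its log2 fold change was -0.064, with a 95% interval from -0.24 to 0.11 (edgeR quasi-likelihood, adjusted p = 0.964). Single libraries moved it from -0.11 without WT 5 to -0.022 without PYK2 KO 4.

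Csf2rb, the β chain shared by the receptors of GM-CSF, IL-3 and IL-5, was measured at 206, 169 and 177 CPM in WT against 145, 155 and 169.9 in PYK2 KO BMDMs. The genotypes touched at 1 point, where PYK2 KO library 4 lay slightly above WT library 5. The log2 fold change of -0.23 (SE 0.094, 95% interval from -0.43 to -0.033) had an unadjusted p-value of 0.025 but did not pass once adjusted over all tested genes (adjusted p = 0.718, edgeR quasi-likelihood). Without WT library 1 it was -0.14.

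Csf2rb2, the IL-3 specific β chain, was covered by 708, 528 and 377 counts in WT against 312, 326 and 344 in PYK2 KO BMDMs. Scaled to library size, these were 181, 148 and 132 CPM in WT against 100.1, 113 and 103 in PYK2 KO BMDMs. Every PYK2 KO value lay below every WT value, and the WT values were spread more widely than the PYK2 KO values. The log2 fold change was -0.55 (SE 0.11, 95% interval from -0.78 to -0.32). Its adjusted p of 0.0451 (edgeR quasi-likelihood, Benjamini-Hochberg) was close to the threshold. The call was lost without WT 1, WT 5, PYK2 KO 2, PYK2 KO 3 or PYK2 KO 4 (edgeR adjusted p from 0.111 to 0.211) and held without WT 6 (0.013), with log2 fold changes between -0.65 and -0.42. It was also lost with limma-voom and with library totals as the only scaling, and held with DESeq2 (adjusted p = 0.00893).

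**Figure D2:**
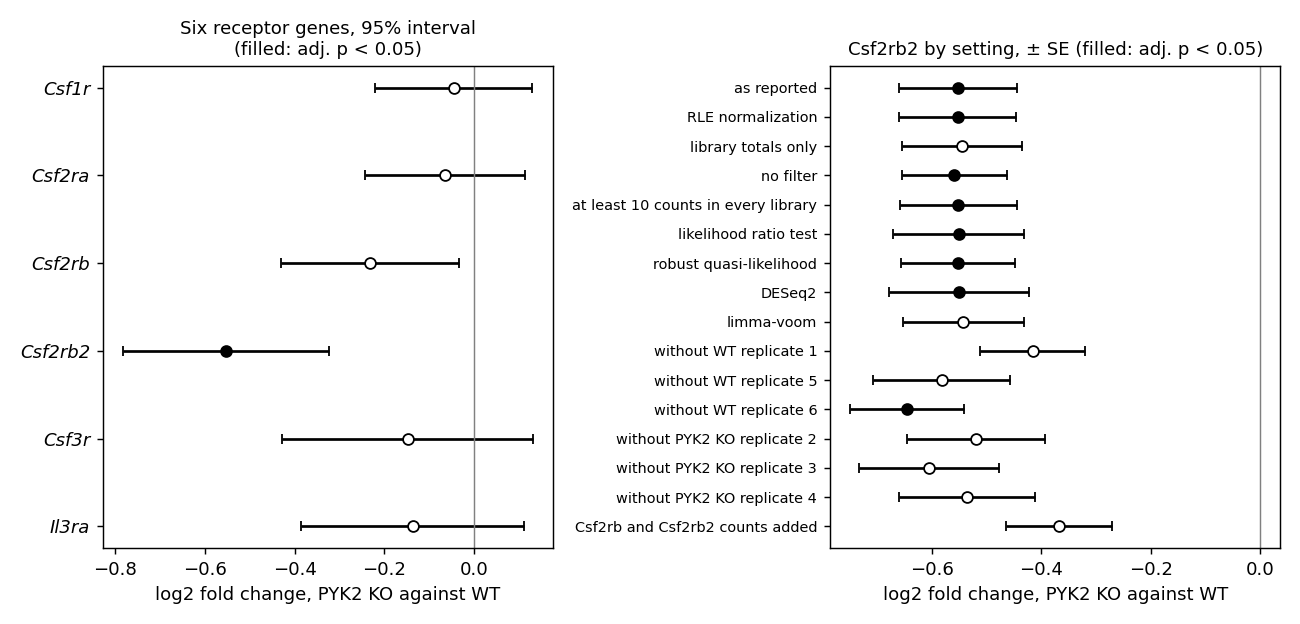
The left panel gives the log2 fold change of PYK2 KO against WT (horizontal axis) of each receptor gene with its 95% interval, and the right panel that of Csf2rb2 with its standard error in each processing setting, with filled points at an adjusted p-value under 0.05. The interval of Csf2rb2 runs from -0.78 to -0.32, and its value stays below 0 in each setting drawn while the call comes and goes.

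Il3ra, the IL-3 receptor α chain, had 89.6, 112 and 84.1 CPM in WT against 98.8, 82.8 and 79.3 in PYK2 KO BMDMs. It was the only member whose highest value was not in WT library 1, being highest in WT library 5, and its genotypes overlapped. The log2 fold change of -0.14 had a 95% interval from -0.39 to 0.11 (adjusted p = 0.935, edgeR quasi-likelihood). It was -0.0020 without WT 5 and -0.24 without PYK2 KO 2. Il3ra lies on chromosome 14, as does Ptk2b, with 51.8 Mb between both genes in GENCODE M21 on GRCm38.

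Csf3r, the G-CSF receptor, was the lowest member, at 54.7, 47.9 and 40.3 CPM in WT against 41.4, 48.1 and 40.5 in PYK2 KO BMDMs. The lowest value of all belonged to WT library 6, so the genotypes overlapped, and the log2 fold change of -0.15 had a 95% interval from -0.43 to 0.13 (adjusted p = 0.937, edgeR quasi-likelihood). Without WT 1 it was -0.034, and without WT 6 it was -0.25. Csf3r is also a neutrophil gene. Of the 12 neutrophil markers listed, 9 were tested and 0 passed, against 0.255% of all tested genes, while 4 (S100a9, Mpo, Prtn3 and Mmp8) were higher in PYK2 KO BMDMs at an unadjusted p-value under 0.05, against 6.03% of all tested genes in either direction. Their summed level ran from 319 to 427 CPM in WT and from 355 to 569.9 CPM in PYK2 KO libraries, Csf3r included, and Ly6g had 1 count in 1 library. Their part in the level of Csf3r was not tested.

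The order of the levels was the same in both genotypes, namely Csf1r, Csf2ra, Csf2rb, Csf2rb2, Il3ra and Csf3r. These levels are in CPM of 3′ end tags, of which a transcript gives about the same number whatever its length, so they were not divided by length. In WT BMDMs Csf1r was 3.97 times as abundant as Csf2ra, and the neighbours Csf2rb and Csf2rb2 overlapped across libraries. In PYK2 KO BMDMs no neighbours in the order overlapped, and Csf2rb stood 1.49 times above Csf2rb2, against 1.20 times in WT. Library WT 1 held the highest level of 5 of the 6 members. The lowest level was in WT library 6 for 2 members, in PYK2 KO library 2 for 2 and in PYK2 KO library 4 for 2.

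The genes of both β chains lie side by side on chromosome 15 of GRCm38 in GENCODE M21. Csf2rb2 runs from 78282507 to 78305721 on the minus strand and Csf2rb from 78325752 to 78353847 on the plus strand, so that both are transcribed away from a gap of 20.0 kb between their starts. As close paralogs they could share reads. Over their whole length, 19.0% of the 50-base stretches of the longest Csf2rb2 transcript also occur in Csf2rb, and the longest identical stretch measures 242 bases. In the last 1000 bases, where the 3′ end tags of this protocol are expected, 0 of the 951 stretches of 50 bases were shared in either direction and the longest identical stretch was 39 bases. How the counting treated reads that fit both genes is not given in the sources used here.

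The share of Csf2rb2 in the summed counts of both β chain genes does not depend on library scaling. It was 46.7%, 46.7% and 42.8% in WT against 40.8%, 42.2% and 37.6% in PYK2 KO BMDMs. The genotypes did not overlap, but WT library 6 and PYK2 KO library 3 stood close together, with exact binomial 95% intervals (counting error only) from 39.5% to 46.1% and from 38.7% to 45.7%. The mean share was 45.4 ± 2.27% for WT against 40.2 ± 2.33% for PYK2 KO (SD, n = 3), a difference of -5.20 percentage points. A two-sided exact permutation test gave p = 0.1, the smallest value this design allows. The share holds the same Csf2rb2 counts as the call, so it does not add separate evidence for that call. Added into 1 feature, both β chains were at 337 ± 43.1 in WT against 262 ± 14.6 CPM in PYK2 KO BMDMs, with a log2 fold change of -0.37 that did not pass (adjusted p = 0.332, edgeR quasi-likelihood).

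**Figure D3:**
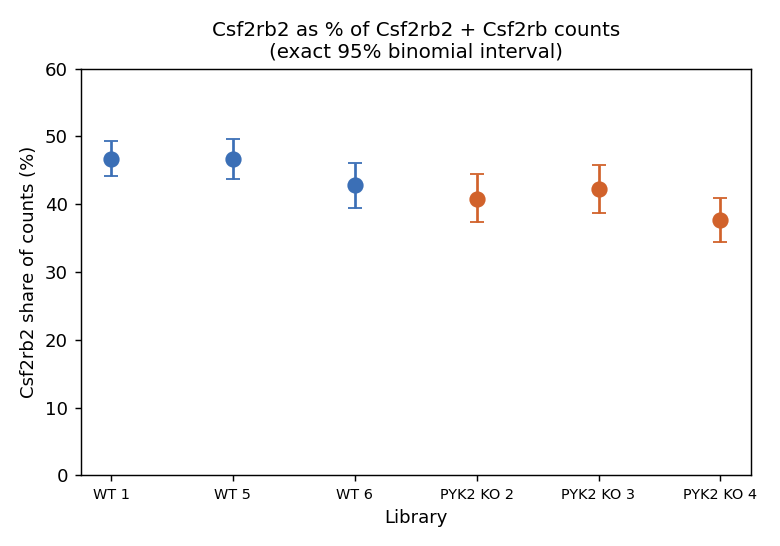
Percent of the summed Csf2rb2 and Csf2rb counts that belonged to Csf2rb2 (vertical axis, from 0) in each library, WT in blue and PYK2 KO in orange, with exact binomial 95% intervals that cover counting error only. The WT libraries run from 42.8% to 46.7% and the PYK2 KO libraries from 37.6% to 42.2%.

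The promoters of Csf2rb2, the member that passed the test, and of Csf2ra, the α chain that did not pass, are shown for comparison as the 250 bases before the RefSeq start on GRCm38.p6, on the strand of the gene. Capitals mark the PU box GAGGAA on either strand (as TTCCTC on the other), the core bound by PU.1, a transcription factor of the myeloid lineage. The Csf2rb2 window is chr15:78305722-78305971 on the minus strand and that of Csf2ra chr19:61228419-61228668 on the minus strand.
Csf2rb2: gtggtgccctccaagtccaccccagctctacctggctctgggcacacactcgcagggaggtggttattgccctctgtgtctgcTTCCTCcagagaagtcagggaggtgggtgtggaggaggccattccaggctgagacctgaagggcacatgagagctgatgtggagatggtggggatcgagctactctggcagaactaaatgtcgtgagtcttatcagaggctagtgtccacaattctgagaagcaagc
Csf2ra: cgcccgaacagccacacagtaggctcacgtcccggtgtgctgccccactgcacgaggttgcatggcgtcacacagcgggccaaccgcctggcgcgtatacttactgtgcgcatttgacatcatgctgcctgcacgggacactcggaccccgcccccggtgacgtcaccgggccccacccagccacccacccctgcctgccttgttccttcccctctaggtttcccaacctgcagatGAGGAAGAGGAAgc

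Csf2rb2 held 1 match, which began 167 bases before the start, whereas Csf2ra held 2 that adjoin without overlap and begin 14 and 8 bases before the start. Csf3r held 1 match and Il3ra 0, Csf1r and Csf2rb were not searched, and 23.3% of the 32851 promoter windows of this length held at least 1. A match is a string of letters in this window and not a measured binding site.

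Genes around Csf2rb2 were read from the same fit, since the adjoining Csf2rb leaned the same way. Within 500 kb of its start lay 15 other tested genes, of which 11 had negative and 4 positive log2 fold changes, with a median of -0.024, while 49.5% of all tested genes were negative. None of the 15 passed edgeR's quasi-likelihood test, against 0.255% of all tested genes. The genotypes did not overlap for 4 of the 15, against 10.2% of all tested genes, and 4 had an unadjusted p-value under 0.05, namely Ncf4, Csf2rb, Gm36738 and Mfng, against 6.03% of all tested genes. These 15 genes are few, and the counts describe them only. Ncf4, which encodes a cytosolic subunit of the phagocyte NADPH oxidase, is the nearest tested gene on the other side of Csf2rb2 and pointed the opposite way. It was at 229.8, 246 and 237 CPM in WT against 314, 304 and 298 in PYK2 KO BMDMs. All PYK2 KO values lay above the WT values, with a log2 fold change of 0.36 (adjusted p = 0.125, edgeR quasi-likelihood). DESeq2, the likelihood ratio test and the fit without a filter called it, with adjusted p-values of 0.0202, 0.0413 and 0.0151. Among these genes the values thus moved in both directions, and the cause was not tested.

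**Figure D4:**
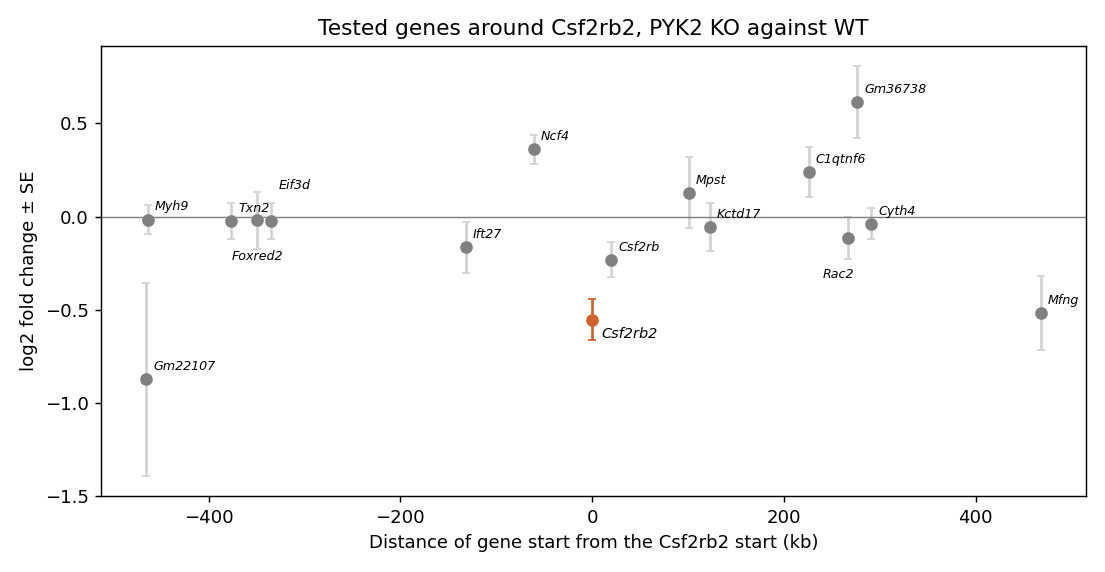
Log2 fold change of PYK2 KO against WT with its standard error (vertical axis) of Csf2rb2 (orange) and the 15 other tested genes (grey) by the distance of their starts from that of Csf2rb2 in kb. Csf2rb2 lies at -0.55, Csf2rb at -0.23 on one side and Ncf4 at 0.36 on the other.

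The ligands were next considered, because macrophages can feed their own receptors. Of the 6 ligand genes listed, Csf1 alone was expressed, at 29.9, 31.4 and 41.4 CPM in WT against 44.3, 41.9 and 35.5 in PYK2 KO BMDMs. Its genotypes overlapped, and the log2 fold change was 0.26 (SE 0.15, edgeR quasi-likelihood adjusted p = 0.896). It was 0.17 without WT 1 and 0.40 without WT 6. Il34, the alternative ligand of CSF1R, had 0 counts in every library, and so had Csf2, Il3 and Il5, while Csf3 had 1 count in 1 library. A count of 0 allows a level of up to 0.766 to 1.05 CPM, depending on the library, if 3 counts are taken as the limit. Il5ra, the α chain of IL-5, was at 0 counts as well, so that of the α chains that join the shared β chain only those of GM-CSF and IL-3 were detected. Among the receptor kinases most closely related to CSF1R, Flt3 and Pdgfra had 0 counts, Pdgfrb had 1 count in 1 library, and Kit had at most 5.

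Genes that act with the receptors were described in 8 lists of 95 genes, of which 72 were tested. In the fits of all 6 libraries with the filter, 0 passed edgeR's quasi-likelihood test, against 0.255% of all genes, 0 passed DESeq2 and 0 limma-voom, and 9 (12.5%) had an unadjusted p-value under 0.05 against 6.03% of all tested genes. Their median log2 fold change was -0.0064.

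In the list of JAK and STAT genes and their targets (12 tested, median log2 fold change -0.0086), 6 had negative and 6 positive point estimates. Stat5a, a transducer of the β chain, was at 42.7 ± 1.45 in WT against 48.8 ± 1.94 CPM in PYK2 KO BMDMs (SD, n = 3). Jak2, the kinase bound to that chain, was at 26.3, 24.4 and 21.7 CPM in WT against 30.5, 26.7 and 26.8 in PYK2 KO BMDMs. For both the PYK2 KO values lay above the WT values, without passing the test. Stat3, another transducer, lay the other way without overlap, at 138 ± 3.11 against 131 ± 0.873 CPM, so that 3 of the 12 did not overlap, against 10.2% of all tested genes. Myc, a growth gene induced by M-CSF, was at 36.0 ± 6.43 against 27.4 ± 5.49 CPM, with an unadjusted p-value of 0.0349 in edgeR's test. Its log2 fold change of -0.39 was -0.25 without WT 6 and also without PYK2 KO 4.

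Among the adaptors and enzymes that carry the CSF1R signal (24 tested, median 0.010), 11 were lower and 13 higher by point estimate. Tyrobp, which encodes the adaptor DAP12, and Grb2 were abundant, with log2 fold changes of 0.084 and 0.0094. Akt2 and Src had unadjusted p-values under 0.05, at log2 fold changes of -0.38 and -0.74. Akt2, a survival kinase, was at 43.6 ± 2.66 in WT against 33.4 ± 4.17 CPM in PYK2 KO BMDMs (SD, n = 3), and its genotypes did not overlap. Src was low, at 4.97 ± 0.706 against 3.02 ± 0.564 CPM.

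In the list of brakes and turnover of the receptors (15 tested, median -0.044), 9 were lower and 6 higher by point estimate. Sh2b3, an adaptor that restrains cytokine receptor signaling, was at 123 ± 5.64 in WT against 107 ± 2.31 CPM in PYK2 KO BMDMs, with no overlap. Its log2 fold change of -0.20 did not pass (adjusted p = 0.728, edgeR quasi-likelihood). Ptprj and Ptpn11, which encode phosphatases, followed at -0.30 and -0.15. Ptprj was at -0.46 without PYK2 KO 3, and Ptpn11 at -0.066 without WT 1. Cbl, the ubiquitin ligase that directs CSF1R to degradation, was at 0.054, and Adam17, the protease that sheds it, at 0.091.

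Transcription factors that control Csf1r (7 tested, median 0.0049) had log2 fold changes between -0.18 for Spi1, which encodes PU.1, and 0.22 for Cebpa. For both the genotypes overlapped, and single libraries weighed on both values. Spi1 was at -0.039 without PYK2 KO 4, and Cebpa at 0.089 without PYK2 KO 2.

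The response genes of M-CSF (9 tested, median -0.30) held the widest differences and the widest spread. Egr1, an immediate early gene, had 10.5, 9.24 and 80.3 CPM in WT against 4.17, 12.5 and 1.19 in PYK2 KO BMDMs. WT library 6 alone set its WT mean apart, as it did for Fos, with 21.5, 26.6 and 103 CPM against 13.5, 32.9 and 13.7. For both the genotypes overlapped. Their log2 fold changes of -2.45 and -1.29 became -0.78 and -0.28 without WT library 6. Etv1 pointed the other way, at 8.65 ± 1.06 in WT against 13.1 ± 1.97 CPM in PYK2 KO BMDMs (SD, n = 3), without overlap of the genotypes and without passing the test.

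Of the GM-CSF response genes (6 tested, median -0.14), Ccl17 and Dpp4 had 0 counts in every library, in cultures to which the protocol adds no GM-CSF. Clec4e was at 50.1, 57.1 and 77.5 CPM in WT against 79.2, 80.4 and 86.7 in PYK2 KO BMDMs. The lowest PYK2 KO value lay just above the highest WT value, in library 6, and the log2 fold change of 0.43 did not pass (adjusted p = 0.497, edgeR quasi-likelihood). It passed without WT library 6, at 0.62 (edgeR adjusted p = 0.0347). Fabp4 and Cish were at 0.17 and -0.49, with overlapping genotypes, and Cish ran from -0.82 without PYK2 KO 2 to -0.20 without WT 1.

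**Figure D5:**
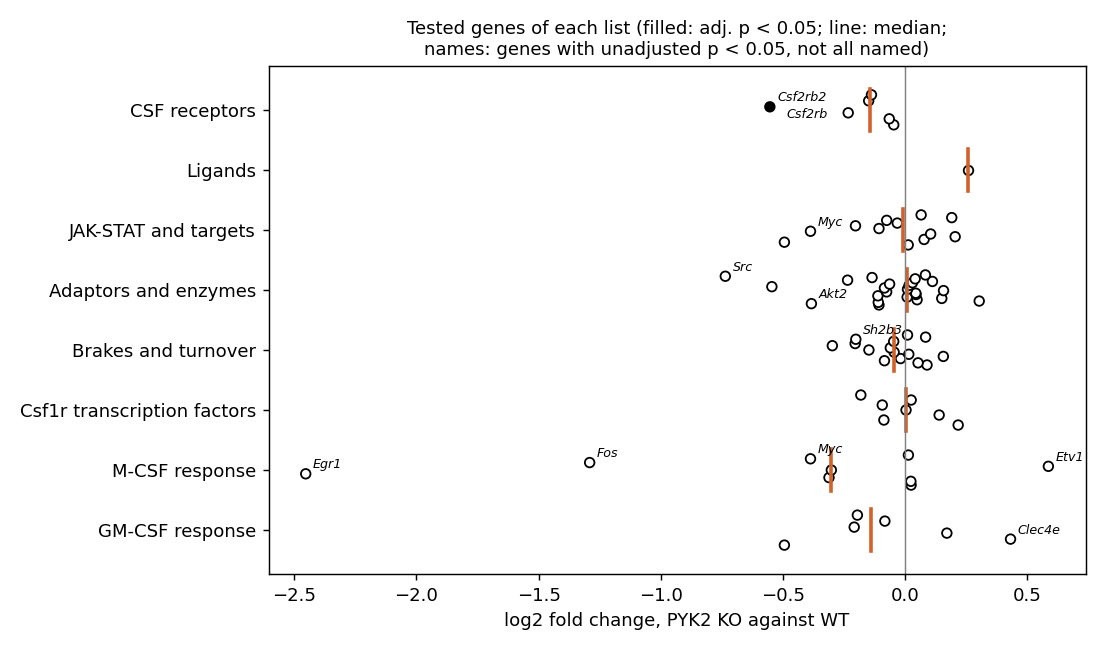
Log2 fold change of PYK2 KO against WT (horizontal axis) of each tested gene in the receptor family and the lists around it, with the median of each list as an orange line, a filled point for an adjusted p-value under 0.05 and names for most genes at an unadjusted p-value under 0.05. Csf2rb2 is the one filled point, and Egr1 at -2.45 and Fos at -1.29 are the farthest from 0.

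Lastly, the genes whose log2 CPM followed the members most closely over the 6 libraries were listed, as a description with no test. Closest to Csf2rb2 were Ip6k1, Rnf185 and Rnf130, with Pearson coefficients of 0.988, 0.986 and 0.986. Closest to Csf2rb were Ptpn11, Map4k5 and Atp6v1a (0.984, 0.980 and 0.978), and closest to Csf1r were Gcdh, Ldlrad3 and Whamm (0.992, 0.988 and 0.987). Each coefficient rests on only these 6 libraries, with both genotypes among them, and 87, 58 and 97 genes exceeded 0.9 for Csf2rb2, Csf2rb and Csf1r.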

How the data were processed

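RNA of day 7 BMDMs from 3 WT and 3 PYK2 KO mice was sequenced with a bulk form of MARS-seq, a protocol that reads the 3′ end of transcripts. Reads were mapped and counted by the authors in UTAP, and the deposited values are raw, whole counts per gene symbol, 1 column per mouse, with no normalization. The submitters' processing notes name cutadapt, STAR and mm10, the build of the GENCODE M21 (GRCm38) positions used here. Whether molecular identifiers were collapsed or strand was used is not given in the sources used here. The binomial intervals of the share and the detection limits cover counting error only, with each count taken as independent. The intervals of the log2 fold changes come from the edgeR fit and include the spread between libraries. There were 0 columns from other samples.

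The 9815 genes that filterByExpr kept were TMM-scaled and fitted on genotype with edgeR 4.0.16 under R 4.3.3, by the quasi-likelihood F test with Benjamini-Hochberg adjustment over all of them and a threshold of 0.05. Each standard error was derived from a gene's fold change and its F value. The p-values set the genotype difference against the spread between libraries, each from a different mouse, with variances partly shared across genes. The fit was tested on simulated counts. Alternatives were DESeq2 1.42.0, limma-voom (limma 3.58.1), other scalings, filters and tests, and leaving out each library. No pair of libraries of the same genotype was a duplicate (chi-square per degree of freedom at least 2.25). The members and lists were chosen with earlier results of these data known. Genes were named by rule: the members, Ptk2b, each list's called genes or otherwise its 3 smallest p-values, tested genes within 500 kb of Csf2rb2, and for Csf1r, Csf2rb and Csf2rb2 the 3 genes most alike by Pearson's r of log2(CPM + 0.5). Genes named outside this rule were chosen after their values were seen, and some genes of the lists, though counted in them, are not reported here by name. Marker lists were also read for basophils, mast cells and eosinophils (0 of 9 tested), B, T and NK cells (1 of 9 tested, Cd79b, not called), progenitors (2 of 5 tested, not called), dendritic cells (1 of 7 tested, Batf3, not called) and stromal cells (0 of 6 tested).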

Additional observations from a re-analysis of the deposited data

How the results depend on the processing

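No paired analysis was made, because the labels give no pairing of mice and no batch. The log2 fold change of Csf2rb2 stayed negative in each fit run. It lost the threshold with library totals alone (-0.55, adjusted p = 0.0662 in edgeR), with limma-voom (-0.54, adjusted p = 0.0701) and with both β chains added (-0.37), and lay between -0.65 and -0.42 when single libraries were dropped. So the number of receptor genes called was 0 with library totals alone and with limma-voom, and between 0 and 1 with one library left out. Csf1r lay between -0.11 and 0.033, reversed without WT library 1. The other 4 members stayed negative and uncalled in each fit, but their size moved with single libraries, from -0.24 to -0.0020 for Il3ra, -0.25 to -0.034 for Csf3r, -0.11 to -0.022 for Csf2ra and -0.30 to -0.14 for Csf2rb. Over all genes, 159 were called without a filter and 45 by the likelihood ratio test, each including the 25 of the reported fit, and from 14 (without PYK2 KO library 4; 15 each without WT library 5 or PYK2 KO library 2) to 34 (without WT library 1) with one library left out. Of the genes in the pathway lists, 3 (Egr1, Fos and Clec4e) were called without a filter, and between 0 and 1 with one library left out. The share of Csf2rb2 differed by -6.51 to -3.91 percentage points with one library left out. Among the genes near Csf2rb2, some changed sign when a library was left out, with ranges of -0.039 to 0.022 for Myh9, -0.097 to 0.066 for Eif3d, -0.092 to 0.057 for Foxred2, -0.011 to 0.34 for Mpst, -0.15 to 0.083 for Kctd17, -0.092 to 0.0085 for Cyth4 and -0.10 to 0.053 for Txn2. The causes were not tested. With 3 mice per genotype, intervals stayed wide for the lower members, that of Csf3r running from -0.43 to 0.13.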
